A study of Homo sapiens with 3 samples.

Results

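The kidney developmental transcription factors described here are 8 genes, PAX2, PAX8, LHX1, GATA3, SIX2, EYA1, SALL1 and WT1. They were measured by 20 of the 22277 probe sets of an Affymetrix-format expression array, and every set whose annotated symbol was one of the 8 names was taken. The study transfected HEK293T cells with dCas9VP160, a nuclease-dead Cas9 fused to the VP160 activation domain, and changed the guide RNA. HEK293T is a line of human embryonic kidney origin that carries the SV40 large T antigen, which is part of every sample here. The control sgTetOmut is a mutated form of sgTetO with no target. The guide sgTetO is directed to the TetO promoter, for which no human target is given, and the guides sgIL1RN1~3 are directed to the promoter of the human gene IL1RN. Each of the 3 conditions was measured on 1 array of total RNA, so no value below has a replicate error, no test between guides was possible, and no time after transfection is given. The share of cells that took up the plasmids is not given in the sources used here. In whole cultures, fewer cells expressing a gene and less RNA per cell cannot be told apart.

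These 8 genes belong to the network that builds the kidney. PAX2 and PAX8 are paired-box factors that act at the start of the nephric lineage, and LHX1, a LIM-homeodomain factor, and GATA3, a zinc-finger factor, act with them in the nephric duct that becomes the collecting system. SIX2, EYA1, SALL1 and WT1 mark the metanephric mesenchyme around the ureteric bud: the homeodomain factor SIX2 keeps nephron progenitors self-renewing, EYA1 is a phosphatase and coactivator that works with SIX2 and its relatives, SALL1 is a zinc-finger repressor, and the zinc-finger factor WT1 acts in the mesenchyme and later in podocytes.

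PAX8 is the member that lies nearest to the guides' target. In the order of genes on chromosome 2, IL1RN is followed by PSD4 and then by PAX8, with no other protein-coding gene between them in the GRCh38.p14 gene table. SIX2 is on the same chromosome. The promoter windows of PAX8 and SIX2 are shown because they belong to a member near the target and at background by most of its probe sets, and to a member above background by both of its sets. Each window runs from 250 bases before to 50 bases after an annotated start, is read 5′ to 3′ on the minus strand and comes from RefSeq on GRCh38.p14, at chr2:113278872-113279171 for PAX8 and chr2:45009403-45009702 for SIX2. Capitals mark CpG dinucleotides, the sites of DNA methylation.
PAX8: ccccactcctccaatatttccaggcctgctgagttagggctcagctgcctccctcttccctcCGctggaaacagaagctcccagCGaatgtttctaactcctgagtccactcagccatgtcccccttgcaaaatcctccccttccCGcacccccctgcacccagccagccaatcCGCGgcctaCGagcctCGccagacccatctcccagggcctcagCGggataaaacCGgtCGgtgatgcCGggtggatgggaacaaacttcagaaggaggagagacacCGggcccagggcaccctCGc
SIX2: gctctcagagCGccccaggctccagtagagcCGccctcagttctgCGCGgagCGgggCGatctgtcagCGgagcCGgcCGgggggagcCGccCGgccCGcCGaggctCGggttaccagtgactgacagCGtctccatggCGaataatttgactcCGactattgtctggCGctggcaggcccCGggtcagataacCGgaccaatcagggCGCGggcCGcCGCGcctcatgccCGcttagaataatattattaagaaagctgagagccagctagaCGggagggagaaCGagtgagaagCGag
The PAX8 window held 13 CpG dinucleotides and the SIX2 window 29, against a median of 14 over the 35116 windows of that length. RefSeq windows matched 5 of the 8 members, 14 windows in all, and EYA1, LHX1 and SALL1 matched none. The 2 PAX2 windows held 14 and 19 CpG dinucleotides, the 4 WT1 windows 4 to 21 and the 6 GATA3 windows 5 to 36. The 3 listed IL1RN windows held 2, 5 and 7, and the labels do not say which of them the guides were directed to. The GC box GGGCGG, searched on both strands, occurred 2 times in the SIX2 window and 0 times in the PAX8 window, and 45.0% of all windows held it. The box CCAAT, also searched on both strands, occurred 2 times in the PAX8 window and 1 time in the SIX2 window, with 34.6% of all windows holding it. These matches describe the letters only.

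The first question was which of the 8 genes HEK293T cells expressed above background. The scale for this was the array's 27 control probe sets for Bacillus subtilis transcripts, which human RNA does not contain unless they are added. A value was called above background on an array when it exceeded the highest of them, 3.29 log2 units on sgTetOmut and 3.40 on sgTetO and sgIL1RN1~3. That limit came from 1 set, AFFX-PheX-3_at; the next highest Bacillus set stood at 2.64 on sgTetOmut and at 2.74 on both other arrays. Over the whole array 68.4% of probe sets lay above the limit on all 3 arrays, as did 13 of the 20 member sets. By gene, with the brightest set standing for it, all 8 members lay above it on all 3 arrays, against 75.0% of the 11963 named genes. A member with many sets has more chances to pass by its brightest one, which applies most to PAX8 with 8 sets. Log2 values of different probe sets are set here against the Bacillus limit and not against each other, since probe sets differ in how strongly they hybridise.

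**Figure D1:**
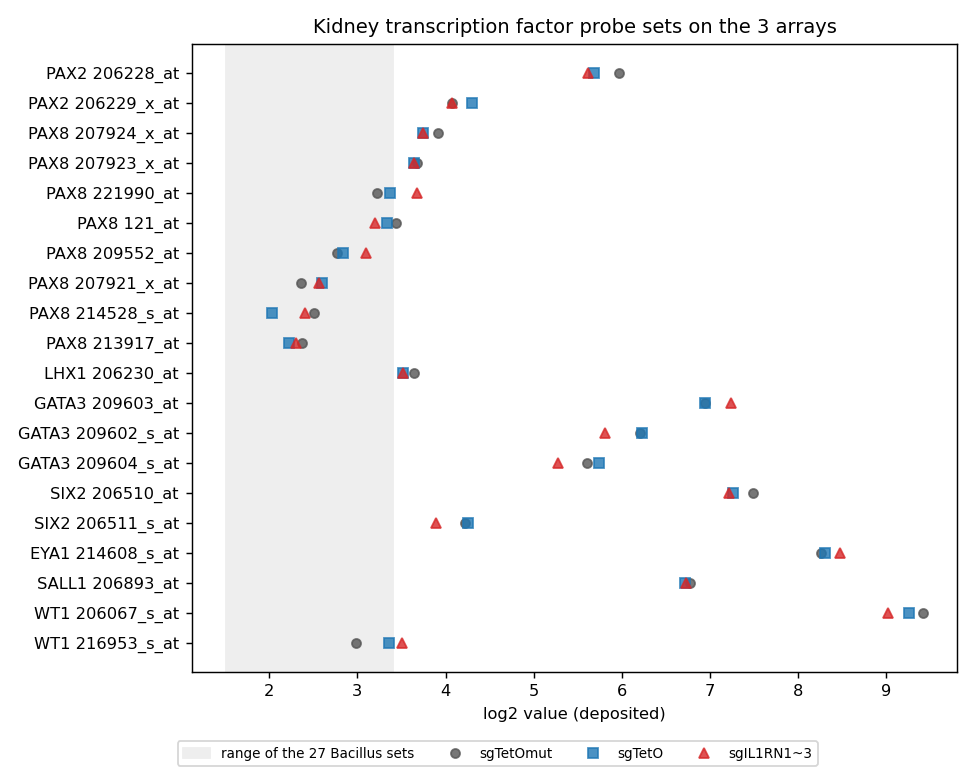
Deposited log2 values (x axis) of the 20 probe sets of the 8 kidney transcription factors (y axis), with 1 point for each of the 3 arrays; the grey band spans the 27 Bacillus control sets over the 3 arrays. On all 3 arrays 13 sets stand to the right of the band, while 6 of the 8 PAX8 sets and 1 WT1 set reach into it.

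WT1, by its set 206067_s_at, had log2 values of 9.42 with sgTetOmut, 9.26 with sgTetO and 9.02 with sgIL1RN1~3. All 3 values lay at least 5.62 log2 units above the Bacillus limit of their array. The second WT1 set, 216953_s_at, read 2.98, 3.36 and 3.50 on the same arrays and passed the limit on sgIL1RN1~3 alone, by 0.10. The 2 WT1 sets thus gave different pictures of one gene, a clear signal by the first and a value at the limit by the second.

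EYA1 was measured by 1 set, 214608_s_at, with 8.26 on sgTetOmut, 8.31 on sgTetO and 8.48 on sgIL1RN1~3. SALL1, also with 1 set, 206893_at, read 6.78, 6.72 and 6.73 in that order. EYA1 stood at least 4.91 log2 units above the limit and SALL1 at least 3.31. The SALL1 values spanned 0.06 log2 units over the 3 arrays.

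SIX2 was above the limit by both of its sets. The set 206510_at read 7.49 with sgTetOmut, 7.26 with sgTetO and 7.22 with sgIL1RN1~3, and the set 206511_s_at read 4.22, 4.25 and 3.89. The first set stood 3.82 to 4.20 log2 units above the limit and the second 0.48 to 0.93. All 4 genes of the metanephric mesenchyme group were therefore above background by at least 1 set on all 3 arrays.

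Among the genes of the nephric duct, GATA3 was above the limit by all 3 of its sets. The set 209603_at read 6.94 on sgTetOmut, 6.95 on sgTetO and 7.25 on sgIL1RN1~3. The set 209602_s_at read 6.20, 6.23 and 5.81, and the set 209604_s_at read 5.60, 5.74 and 5.27. The smallest distance of a GATA3 value from the limit was 1.87 log2 units.

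PAX2 was above the limit by both of its sets. The set 206228_at read 5.97 with sgTetOmut, 5.68 with sgTetO and 5.62 with sgIL1RN1~3, at least 2.21 log2 units above it. The set 206229_x_at read 4.08, 4.30 and 4.08, 0.67 to 0.89 above it. The suffix _x_at marks, in Affymetrix naming, a set whose probes may also bind other transcripts.

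LHX1, by its 1 set 206230_at, read 3.64 with sgTetOmut and 3.51 with both sgTetO and sgIL1RN1~3. These values were 0.36 log2 units above the limit on sgTetOmut and 0.11 above it on both other arrays. The call that LHX1 was above background rests on these small distances, and it was lost when 1 log2 unit was added to the limit.

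PAX8 had the most sets, and most of them did not pass the limit on all 3 arrays. The set that stood for the gene, 207924_x_at, read 3.92 with sgTetOmut and 3.74 with both other guides, 0.34 to 0.63 above the limit. The set 207923_x_at read 3.67, 3.64 and 3.64, 0.24 to 0.38 above it. No other PAX8 set passed on all 3 arrays, and both that did carry the suffix for probes that may bind elsewhere.

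The set 221990_at read 3.22, 3.36 and 3.68 and passed on sgIL1RN1~3 alone. The set 121_at read 3.43, 3.33 and 3.19 and passed on sgTetOmut alone. The other 4 PAX8 sets, 209552_at, 207921_x_at, 213917_at and 214528_s_at, were under the limit on every array, with values from 2.03 to 3.10. With the mean of its 8 sets PAX8 read 3.03, 2.97 and 3.08 and was not above background on any array. The gene PAX8-AS1 lies inside PAX8 on the chromosome, and whether its transcripts contribute to these sets was not tested.

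The second question was whether any member differed between guides. None did by 2-fold: 0 of the 14 to 16 member sets with a value above background were at least 1 log2 unit apart in any pair of arrays. Of all probe sets with such a value, 0.468% passed this limit when sgTetO was set against sgTetOmut, 0.516% when sgIL1RN1~3 was set against sgTetO and 0.718% when it was set against sgTetOmut. With shares this small, 0 of about 15 sets is near the background. At 1.5-fold the count was 0 as well, against 1.82%, 6.02% and 4.54% of all sets in the same order.

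**Figure D2:**
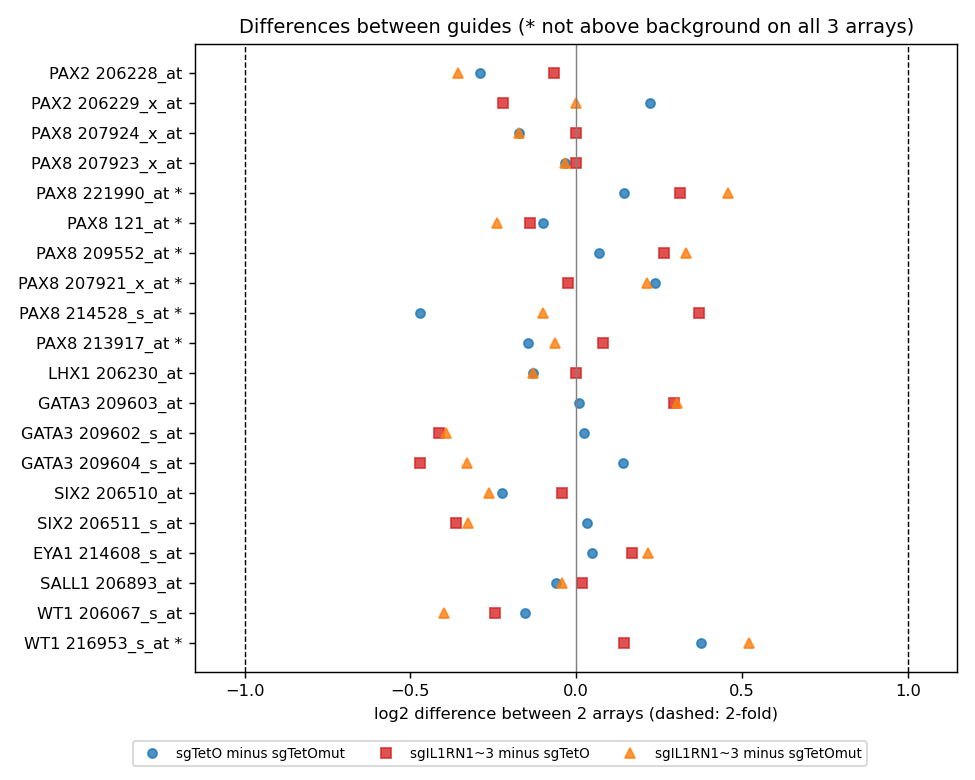
Log2 differences (x axis) between the arrays of each pair of guides for the 20 member probe sets (y axis); dashed lines mark 2-fold and a star marks the 7 sets not above background on all 3 arrays. Every point lies between the dashed lines, and the farthest is 0.52, at the WT1 set 216953_s_at.

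Between the control guides the members were close. The farthest apart of the 14 sets was PAX2 206228_at, with -0.29 log2 units for sgTetO minus sgTetOmut. The other set of that gene, PAX2 206229_x_at, differed in the opposite direction, by 0.22. SIX2 206510_at differed by -0.22 and WT1 206067_s_at by -0.15, while EYA1, GATA3 209602_s_at and 209603_at and SIX2 206511_s_at differed by 0.05 or less. The 8 genes had a median difference of -0.14 for sgTetO minus sgTetOmut, with 6 lower and 2 higher, beside a median of -0.01 over all named genes, of which 40.7% were higher. The median over the 8 was -0.05 with the mean of all sets of a gene and -0.07 with 16 added to the linear values. The SD of this difference over all sets above background was 0.22 log2 units.

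Between sgIL1RN1~3 and sgTetO, 2 GATA3 sets were the farthest apart among member sets above background on all 3 arrays, and the GATA3 sets disagreed in direction. Relative to sgTetO, 209604_s_at was lower by 0.47 and 209602_s_at by 0.41, whereas 209603_at was higher by 0.30. Relative to sgTetOmut the same sets differed by -0.33, -0.39 and 0.30. Of all probe sets above background, 11.1% were at least as far apart between sgIL1RN1~3 and sgTetO as 209604_s_at, 15.0% as 209602_s_at and 27.6% as 209603_at. Between the control guides the 3 GATA3 sets differed by 0.14 or less. Other genes had a pattern over the 3 arrays close to that of 209604_s_at. Of 8973 named genes above background, 274 lay within a Euclidean distance of 0.1 from it after centring on the mean. How many lie that near to other sets was not counted. The nearest to 209604_s_at were SEC31A, a coat protein of transport vesicles, RALA, a small GTPase, and MTERF3, a mitochondrial protein, at 0.011 to 0.012. With 3 arrays this likeness describes the shape of 3 values only.

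WT1 was the member furthest below sgTetOmut on the IL1RN array. Its set 206067_s_at differed by -0.40 from sgTetOmut and by -0.24 from sgTetO, and the array order was sgTetOmut, sgTetO, sgIL1RN1~3 from high to low. Of all sets above background, 13.0% and 35.2% were at least as far apart in these pairs. The low set 216953_s_at had the reverse order, 0.52 higher with sgIL1RN1~3 than with sgTetOmut, a difference that lay across the background limit. Because of it the mean of both WT1 sets was 0.06 higher with sgIL1RN1~3 than with sgTetOmut.

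SIX2 and PAX2 were also lower on sgIL1RN1~3 than on sgTetOmut. The SIX2 sets differed by -0.26 for 206510_at and -0.33 for 206511_s_at. Against sgTetO they differed by -0.04 and -0.36, so that the first set separated sgTetOmut from both other arrays and the second separated sgIL1RN1~3. PAX2 206228_at differed by -0.36 from sgTetOmut and by -0.07 from sgTetO, and 206229_x_at by 0.00 and -0.22.

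EYA1 was 0.22 higher with sgIL1RN1~3 than with sgTetOmut and 0.17 higher than with sgTetO. SALL1 differed by -0.04 and 0.02, and LHX1 by -0.13 and 0.00. The median over the 8 genes was -0.15 for sgIL1RN1~3 minus sgTetOmut, or -0.09 with the mean of all sets and -0.07 with 16 added to the linear values, and 0.00 for sgIL1RN1~3 minus sgTetO, beside medians of 0.00 and 0.01 over all named genes. The comparisons share arrays, so a member high on sgTetOmut gives a negative value in both comparisons with it. Of the 13 sets above background on all 3 arrays, 7 were highest on sgTetOmut alone and 6 lowest on sgIL1RN1~3 alone. Over all such sets of the array the shares were 28.3% and 33.5%.

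**Figure D3:**
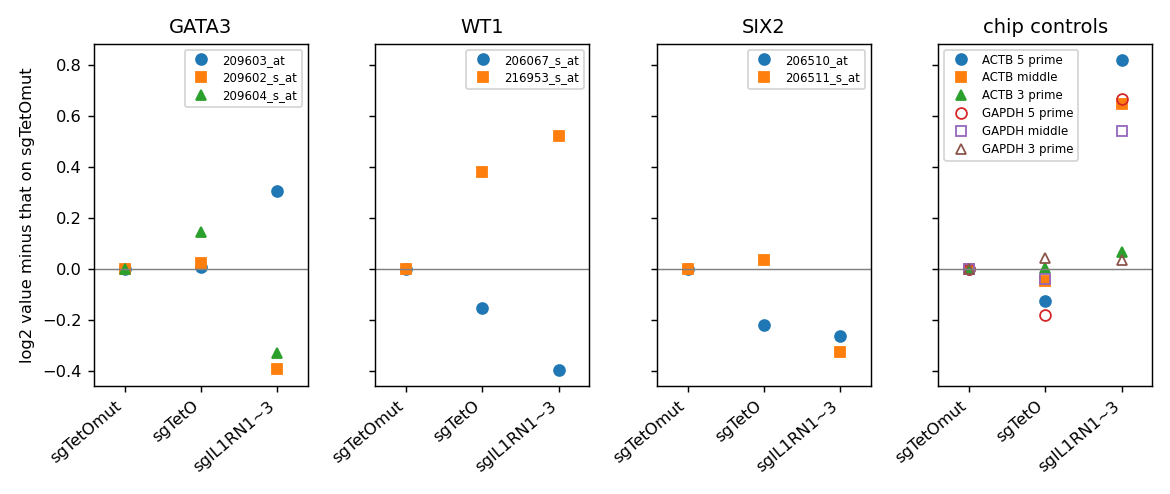
Log2 value of each probe set minus its value on sgTetOmut (y axis) for the 3 arrays (x axis), for GATA3, WT1, SIX2 and the chip controls of ACTB and GAPDH by position in the transcript. On sgIL1RN1~3 the 3 GATA3 sets and the 2 WT1 sets lie on both sides of 0, and the ACTB and GAPDH 5 prime and middle sets lie 0.54 to 0.82 above it; WT1 216953_s_at is above background on sgIL1RN1~3 alone.

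The sgIL1RN1~3 array differed from the other arrays in its chip controls for ACTB and GAPDH, which follow RNA integrity and the reach of labelling along a transcript. Relative to sgTetO the 5′ sets were higher by 0.95 for ACTB and 0.84 for GAPDH, the middle sets by 0.69 and 0.58, and the 3′ sets by 0.06 and -0.01. The 5′ and middle differences exceed that of any member set. Their part in the GATA3, WT1, SIX2 and EYA1 values was not tested, and the positions of the member sets along their transcripts were not used here.

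The third question was whether PAX8, the member closest to the target of the guides, differed on the array where that target did. IL1RN, the gene of the interleukin-1 receptor antagonist, read 7.01 with sgIL1RN1~3 by its brightest set, 212657_s_at, and was at background with sgTetOmut and sgTetO, at 2.23 and 2.28. On the same array the PAX8 sets above background on all arrays, 207924_x_at and 207923_x_at, held exactly the sgTetO value and were 0.17 and 0.03 lower than with sgTetOmut. The set 221990_at was 0.46 higher than with sgTetOmut and 0.31 higher than with sgTetO. It crossed the background limit in doing so, and 9.47% and 25.1% of all sets above background were at least as far apart. The set 209552_at was 0.33 and 0.27 higher but stayed under the limit, while 121_at was 0.24 and 0.14 lower. PSD4, an exchange factor gene between IL1RN and PAX8, was at background on all 3 arrays by its brightest set. No PAX8 set reached 1.5-fold, and its sets did not share a direction.

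**Figure D4:**
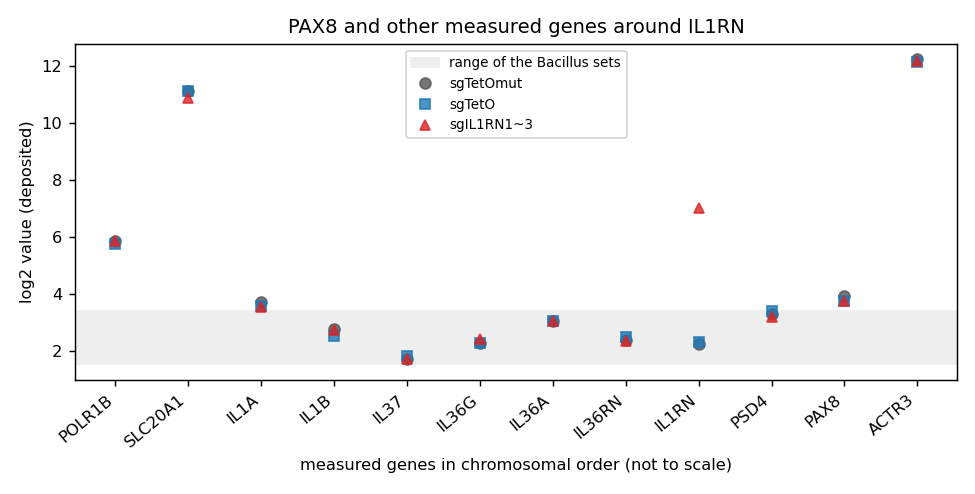
Deposited log2 values (y axis) of PAX8 and 11 other genes with a probe set around IL1RN, in chromosomal order and not to scale (x axis), each by its brightest set; the grey band spans the Bacillus control sets. IL1RN, by 212657_s_at, is the one gene with points far apart, at 7.01 with sgIL1RN1~3 against 2.23 and 2.28. The other IL1RN sets are not shown. The PAX8 points lie between 3.74 and 3.92.

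Identical values on different arrays occurred in 4 member sets, PAX2 206229_x_at, LHX1 206230_at and PAX8 207923_x_at and 207924_x_at. All 4 were within 0.9 log2 units of the Bacillus limit. A difference of 0.00 in these sets is a property of the deposited values and no measure of precision.

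The wider network was read from gene lists, with 1 set per gene. Of 28 measured genes among 42 other kidney transcription factors, 20 (71.4%) were above background on all 3 arrays, beside 75.0% of all named genes. The 4 described here were taken by the highest mean log2 value of their set, which does not order the genes by expression. They were HEY1, a target of Notch signalling, at 13.16, 13.08 and 13.10 on sgTetOmut, sgTetO and sgIL1RN1~3, TFAP2A, an AP-2 factor, at 12.12, 12.12 and 12.09, CITED1, a coactivator of the nephron progenitors, at 9.67, 9.68 and 9.80, and SOX9, a factor of the ureteric bud tips, at 9.48, 9.50 and 9.52. These 4 sets differed by at most 0.13 log2 units between arrays. A second SOX9 set read 9.48, 9.10 and 9.56, and a second TFAP2A set above background read 5.07, 5.38 and 5.57. FOXC2, FOXI1, HNF4G, LMX1B, POU3F3, TCF21 and TFAP2B were at background on all 3 arrays.

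Of 24 measured signals and receptors of kidney induction, 14 (58.3%) were above background on all 3 arrays, beside 75.0% of all named genes. NOTCH2, BMP7, a growth factor that keeps the progenitors alive, SPRY1, an inhibitor of receptor tyrosine kinase signalling, and JAG1, a Notch ligand, taken by the same rule, had values from 10.53 to 12.02 by their brightest sets. Further sets of NOTCH2, BMP7 and JAG1 read as low as 4.90, 3.98 and 3.86. FGF7, FGF8, FGF20, WNT4, GREM1 and AGTR2 were at background on all 3 arrays. None of either list was 2-fold apart in any pair, where the shares over all named genes were 0.547% for sgTetO against sgTetOmut, 0.281% for sgIL1RN1~3 against sgTetO and 0.758% for sgIL1RN1~3 against sgTetOmut. At 1.5-fold, where these shares were 1.58%, 4.08% and 3.42%, 2 receptors of the GDNF pathway passed, both named after their values were seen: RET was 0.65 lower with sgIL1RN1~3 than with sgTetOmut, and GFRA1 was 0.63 higher than with sgTetO but above background on sgIL1RN1~3 alone. Both further RET sets were also lower on sgIL1RN1~3, by 0.41 and 0.37 relative to sgTetOmut, the second of them at background throughout. Of the other factors none passed 1.5-fold by its brightest set. However, 1 further set each of CITED2, MYCN, NOTCH2 and FGFR2 did. That of CITED2 was 0.83 higher with sgIL1RN1~3 than with sgTetO (brightest set 0.55). In the same pair that of NOTCH2 was 0.65 higher (brightest set 0.09). That of FGFR2 was 0.73 higher (brightest set 0.06) but above background on sgIL1RN1~3 alone. That of MYCN was 0.70 higher with sgTetO than with sgTetOmut (brightest set 0.11).

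Among 22 measured paralogs of the members, 17 (77.3%) were above background on all 3 arrays, near the 75.0% of all named genes, and 0 were 2-fold apart. GATA2 read 9.05, 8.93 and 8.92 with sgTetOmut, sgTetO and sgIL1RN1~3, GATA6 8.96, 8.85 and 8.71, SALL2 8.67, 8.43 and 8.58, and GATA4 7.86, 7.82 and 7.75. With GATA1, whose values of 3.41, 3.46 and 3.64 were close to the limit, 4 other GATA genes were above background on all 3 arrays. PAX4 and PAX7 were at background, and PAX6 was above it at 6.55, 6.61 and 6.88. EYA4, named after its values were seen, was the paralog furthest apart, 0.84 higher with sgIL1RN1~3 than with sgTetO and 0.47 higher than with sgTetOmut, where EYA1 was 0.17 and 0.22 higher. At 1.5-fold 2 paralogs passed, EYA4 and PAX5, which was 0.66 higher with sgIL1RN1~3 than with sgTetO and at background on sgTetO. Of 15 measured partner proteins of the members, 14 (93.3%) were above background on all 3 arrays, beside the same 75.0%. Among them were the repressor complex subunits RBBP7, HDAC2 and RBBP4 and the corepressor TLE4, with values from 10.81 to 11.66 by their brightest sets. Of the partner proteins 0 were 2-fold apart or 1.5-fold apart.

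Of the markers of the differentiated nephron, 12 of 22 measured were above background on all 3 arrays, beside 75.0% of all named genes. PTPRO, a podocyte phosphatase, read 11.83, 12.14 and 12.05, PODXL, the podocyte surface protein podocalyxin, 9.75, 9.64 and 9.91, the water channel AQP3 8.67, 8.81 and 8.83, and CDKN1C, a cell cycle inhibitor of podocytes, 6.19, 6.15 and 6.15. Of the tubule markers, LRP2, the endocytic receptor megalin of the proximal tubule, read 5.81, 6.13 and 5.42. By their brightest sets SLC5A2, SLC22A6 and SLC22A8, transporters of the proximal tubule, CALB1 of the distal tubule and SCNN1A, a sodium channel subunit, were above background on all 3 arrays with values from 3.50 to 4.58. A further set each of AQP3, CDKN1C, SLC22A6, CALB1 and SCNN1A was at background on all 3 arrays. The second PTPRO set read 3.46, 3.59 and 3.64, close to the limit and far under the brightest. In contrast, NPHS1 of the podocyte slit, CUBN and SLC34A1 of the proximal tubule, SLC12A1 of the loop, SLC12A3 of the distal tubule and AQP2 of the collecting duct were at background on all 3 arrays. AQP1, CDH6, CDH16 and SCNN1B were at background as well, which made 10 genes. By its brightest set no gene of this list was 2-fold apart in any pair. At 1.5-fold LRP2 alone passed by its brightest set, 0.71 lower with sgIL1RN1~3 than with sgTetO. A further AQP3 set, under the limit on sgTetO, passed as well. It differed by 0.92 for sgIL1RN1~3 minus sgTetO and by -0.67 for sgTetO minus sgTetOmut. None of the list medians differed by more than 0.15 log2 units between arrays, for signals, other factors, paralogs, partners and nephron markers.

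**Figure D5:**
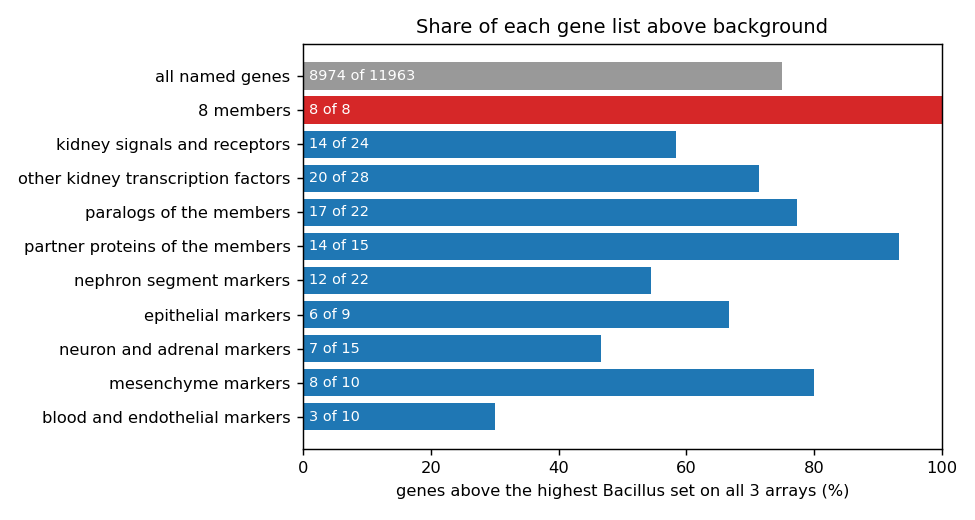
Share of measured genes (x axis, %) above the highest Bacillus control set on all 3 arrays for all named genes, the 8 members and 9 gene lists (y axis), with counts in the bars and 1 probe set per gene. The members stand at 8 of 8 and all named genes at 75.0%; the lowest bar is that of blood and endothelial markers, 3 of 10.

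The labelled cell line was checked on markers of other cell types. The share of all named genes above background on all 3 arrays, 75.0%, stands beside each count here. Of the epithelial markers 6 of 9 were above background on all 3 arrays, KRT8 and KRT18 among them, and KRT19 and CLDN1 were at background. Of the mesenchyme markers 8 of 10 were, with TWIST1, CDH2 and VIM at 9.87 or higher by their brightest sets. THY1 was at background on all 3 arrays by each of its sets, and COL1A2, at 3.60, 3.27 and 3.49, was under the limit on sgTetO. Of the neuron and adrenal markers 7 of 15 were, with TUBB3, NEFL and ENO2 at 9.66 or higher by their brightest sets. CHGA of chromaffin cells, at 4.67, 4.58 and 4.69, was among them. STMN2 was at background on all 3 arrays by each of its sets, and NEFH, at 3.87, 3.55 and 3.39, was under the limit on sgIL1RN1~3. The adrenal marker STAR, at 3.68, 3.53 and 3.40, was above background on the control arrays and at the limit on sgIL1RN1~3, and NR5A1, CYP11A1, CYP17A1, TH and DBH were at background on all 3. Of the blood and endothelial markers 3 of 10 were above background on all 3 arrays, CD14, CDH5 and HBB, none with a value above 4.23, and PTPRC and CD3E, which define leukocytes and T cells, were at background. No marker of these lists was 2-fold apart between guides. At 1.5-fold SFN and PECAM1 passed by their brightest sets. SFN was 0.83 higher with sgIL1RN1~3 than with sgTetO, and a further SFN set 0.79 higher. PECAM1 was 0.63 lower with sgIL1RN1~3 than with sgTetOmut and above background on sgTetOmut alone. A further CDH2 set was 0.63 higher with sgIL1RN1~3 than with sgTetO and 0.83 higher than with sgTetOmut. The brightest CDH2 set was 0.05 higher in each of these pairs.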

How the data were processed

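Total RNA of 3 HEK293T cultures was measured on 1 array each. The authors deposited 1 table of log2 values for 22277 probe sets, for which the submitters' processing notes name the affy package; how background, scaling and probe summary were handled is not given in the sources used here. A range from 1.36 to 14.5 gave the log2 unit. The sorted columns lay within 0.104 log2 units of their mean at every rank, so a difference is relative to the bulk of genes. Gene symbols came from GEO's platform annotation, which gave 1 symbol to 19070 sets, several to 1043 and none to 2164, and the 20 member sets each had 1. The 19070 sets gave 11963 genes, each represented by its brightest set on average over the arrays.

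No detection calls were used. A set counted as 2-fold apart when its log2 values differed by at least 1 and the higher lay above the highest Bacillus control set of its array. The share of all sets at least as far apart is a description and no test. Named genes were all members with every set, up to 4 genes of highest mean in each list, any list gene 2-fold apart, the 3 genes nearest in pattern to the member set of widest range, and genes said to be named after their values were seen. Genes given as at background, and some further genes of the lists, were added for completeness after the values were seen. The members and lists were chosen with earlier results of these data known. The 10 lists were kidney signals and receptors, other kidney transcription factors, paralogs, partner proteins, nephron segments, epithelial, neuron and adrenal, mesenchyme, and blood and endothelial markers, and neighbours of IL1RN. Of the 11 genes measured in the last list, 4 were above background on all 3 arrays, beside 75.0% of all named genes. The alternatives tried were cyclic loess and quantile scaling (limma 3.58.1, R 4.3.3), other background limits, 16 added to the linear values, 1.5-fold and 3-fold limits, other minimum levels and the mean of a gene's sets. Python 3.11.15 with pandas 2.3.3 and numpy 2.4.6 did the rest. Simulated data were used to test the rule for counting sets at 2-fold. With 50 sets raised at each size on 1 array, it recovered 0% at 1.5-fold, 58% at 2-fold and 98% at 3-fold. It also called 86 unchanged sets among 22277. A true change near 2-fold can therefore be missed. The raised sets all lay above the median of the array, whereas every PAX8 set and the LHX1 set lay under it. Recovery of such low sets was not simulated. The simulated noise came from the difference between the control arrays. The SD of that difference over sets above background was 0.22, against 0.30 for sgIL1RN1~3 minus sgTetO. With 1 array per guide, the number of arrays limits the precision.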

Additional observations from a re-analysis of the deposited data

How the results depend on the processing

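The count of 0 member sets 2-fold apart held in each pair under both scalings, at the 1.5-fold limit and with no minimum. With no minimum the farthest member set was 0.52 apart. Both other background limits, the median of all genes as minimum and the 3-fold limit could therefore only give 0. Adding 16 on the linear scale can only shrink a difference, so its count of 0 was fixed as well. All 8 members stayed above background under both scalings, under the 95th percentile of the Bacillus sets (2.59 to 2.70) and with the set chosen on the control arrays; 7 did with the mean of all sets, without PAX8, and 6 with 1 log2 unit added to the limit, without PAX8 and LHX1. With 1 unit added, 8 member sets, 11 paralogs, 7 nephron markers and 0 blood and endothelial markers were above it, and under the 95th percentile 17 member sets, 5 of them of PAX8, and 5 blood and endothelial markers were. With the mean of all sets, 0 genes around IL1RN were 2-fold apart, IL1RN included. Values of single genes changed with the mean of all sets by more than the SD between control arrays (0.22): for sgTetO minus sgTetOmut to -0.03 for PAX2 and 0.11 for WT1, for sgIL1RN1~3 minus sgTetO to -0.20 for GATA3, and for sgIL1RN1~3 minus sgTetOmut to 0.06 for WT1 and -0.14 for GATA3. PAX8 went from -0.17 to 0.05 for sgIL1RN1~3 minus sgTetOmut, a smaller change that turned its direction. The median over the members moved by less than 0.22: from -0.14 to -0.05 with the mean of all sets and -0.07 with 16 added for sgTetO minus sgTetOmut, and from -0.15 to -0.09 and -0.07 for sgIL1RN1~3 minus sgTetOmut. Both scalings turned SALL1 from 0.02 to -0.04 and -0.03 for sgIL1RN1~3 minus sgTetO. No paired analysis was possible because each guide had 1 array. Signal over background limits what can be said of PAX8 and LHX1.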
